A study of Quercus suber with 11 samples.

Results

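The small heat shock protein (sHSP) homologs of cork oak (Quercus suber) were followed in innercork, the living phellem beside the phellogen (the cork cambium), at 3 times of the growing season. A locus was included when its closest Arabidopsis gene in the deposited annotation was 1 of 10 sHSP genes. This gave 58 of the 32024 loci of the table, and 40 of these had a mean of at least log2 of 10 (3.32) over the 11 trees and were tested. The trees were 4 harvested in April, 3 in June and 4 in July, each a different naturally growing tree that gave virgin cork and 1 RNA-seq library. No treatment was applied to any tree. Each month was a single harvest date, so the month cannot be told apart from the weather or the hour of that date, and the hour was not given in the sources used here.

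sHSPs are small chaperones built around an alpha-crystallin domain. They assemble into oligomers, bind proteins that unfold in heat or other stress without using ATP, and hold them until HSP70 and HSP100 chaperones refold them. In plants the family is large, with cytosolic classes and forms in the plastid, the mitochondrion, the endoplasmic reticulum (ER) and the peroxisome. Many members are expressed at a low level until heat shock factors bind the heat shock elements of their promoters, although some also accumulate in development, for example in seeds.

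The values are regularized log (rlog) values, which the authors made from read counts with DESeq2 and which are on the log2 scale. The transformation scales each library by its size factor and pulls loci with few reads toward their mean, so a difference of rlog means (log2FC) understates the change of weakly expressed loci. The paper gives a read total over all libraries, but the total of each library cannot be worked back from rlog. No value is divided by gene length. Suberin synthesis markers were high in all trees, with summed linear values (2 to the power of rlog) of 612300 to 1210000 in April, 1178000 to 1403000 in June and 767100 to 966400 in July. The phellogen and cambium markers summed to 7328 to 10940 in April, 4185 to 4953 in June and 3965 to 6745 in July. The 1 photosynthetic marker locus found stayed under 4 on the linear scale in every tree. The 12 phloem marker loci summed to 4909 to 13310 in April, 19050 to 30290 in June and 5809 to 28230 in July. Every June sum thus lay above every April sum, as for the summed sHSP share. Most of the phloem sum was 1 SEOR1 locus, LOC111994151, at 14.35, 14.03 and 14.64 in June, against 13.29, 13.50, 12.48 and 12.11 in April. Of the 5 tested phloem loci, 3 had a June/April log2FC above 0 and none was called. The SUC2 locus LOC111984700 went the other way, with -1.38. Xylem markers summed to 7.668 to 230.8 in April, 10.31 to 466.6 in June and 9.646 to 225.7 in July. The part of these tissue differences in the sHSP values was not tested, and in bulk tissue fewer cells of a type and less RNA per cell cannot be told apart. Ribosomal RNA took 1.98 to 4.51% of the linear values in April, 5.4 to 9.26% in June and 3.76 to 14.7% in July.

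Of the 10 Arabidopsis genes, 9 had at least 1 cork oak locus, and HSP17.6B-CI (AT2G29500) had none. Cytosolic class I matches made up most of the family, with 25 loci for HSP17.8-CI (AT1G07400), 16 for HSP17.6C-CI (AT1G53540) and 2 for HSP17.4A-CI (AT3G46230). Cytosolic class II was represented by 2 loci for HSP17.6-CII (AT5G12020). Among the other forms, ER-located HSP22.0 (AT4G10250) had 4 loci, plastid HSP21 (AT4G27670) 3, HSP26.5 (AT1G52560) 3, mitochondrial HSP23.6 (AT4G25200) 2 and peroxisomal HSP15.7 (AT5G37670) 1. Being the closest Arabidopsis match does not show that a locus has that protein's compartment.

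By the gene numbers of the deposited identifiers, 36 of the 58 loci lay in 12 runs of neighbours, where a neighbour is at most 2 numbers away. The longest runs held 5 loci each. A run of 5 HSP17.8-CI matches spanned gene 6120 to gene 6124, and the other, from gene 23353 to gene 23358, mixed matches of HSP17.4A-CI, HSP17.6C-CI and HSP17.8-CI. Reads of near-identical neighbours may have been split between them in counting, so values of single loci in these runs are uncertain. By locus name, 42 of the 58 had an entry in RefSeq (assembly Cork oak 2.0), each one protein-coding.

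The 18 loci under the minimum never exceeded an rlog of 3.1 in an April tree. Their highest values were 4.71 in June and 4.86 in July. Just outside the minimum lay LOC111990377 (HSP22.0) with a mean rlog of 3.15, and just inside it LOC111993372 (HSP17.6C-CI) with 3.34. Of the 40 loci that passed, 39 had an April mean that itself reached the minimum. The exception, LOC111993372, passed through its July mean of 3.77, against 3.25 in June and 2.97 in April. Because rlog pulls weak loci toward their mean over all trees, April values are not independent of June and July. The April means thus cannot show whether a locus would pass on April reads alone. Both HSP17.4A-CI loci stayed under the minimum.

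Summed over the 58 loci, the sHSP homologs held 0.205, 0.333 and 0.233% of the linear values in the June trees, against 0.0727, 0.109, 0.0523 and 0.0429% in the April trees. In July the shares were 0.336, 0.396, 0.336 and 0.34%. Every June and July tree thus lay above every April tree. A single class I locus, LOC112002958, held between 67.3 and 86.5% of the sHSP sum in each tree. The share therefore mostly followed this locus.

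**Figure D1:**
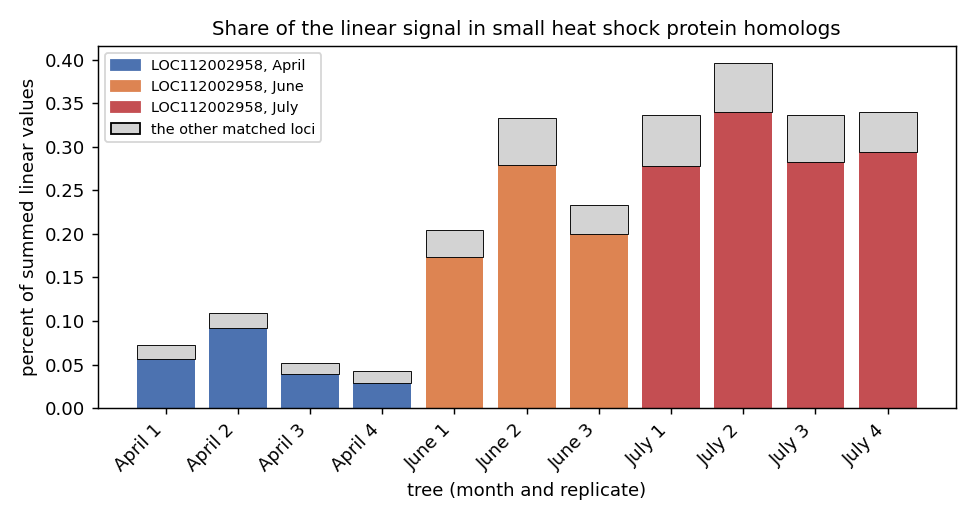
Percent of the summed linear values (2 to the power of rlog, all loci) in the 58 sHSP homologs, 1 bar per tree in the order April, June, July. The coloured part is LOC112002958 and the grey part the other matched loci; the April bars reach at most 0.109% and the June and July bars at least 0.205%.

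Month means were compared with limma on all 22426 loci that passed the minimum, with the month as the only factor. A locus was called where its p, adjusted by Benjamini-Hochberg, did not exceed 0.01 and its log2FC was beyond 1 in either direction. In June/April, 5 of the 40 tested sHSP loci were called, all higher in June (12.5%, where 1.46% of all loci tested were called and 0.994% were called higher). In July/April, 12 of 40 were called, all higher in July (30%, against 2.04% of all loci tested, 1.28% higher). Both comparisons use the same April trees. The tested sHSP loci had a median log2FC of 1.05 for June/April and 1.48 for July/April, while the median over all loci tested was -0.02 in each.

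The groups did not overlap, with every June tree above every April tree, for 24 of the 40 loci (60%, against 13.9% of all loci tested in this direction). In July/April this held for 18 loci (45%, against 8.7%). No sHSP locus had the opposite separation, which 13% and 8.78% of all loci tested had. Higher means than in April were found for 34 of 40 loci in June (85%, against 48.0% of all loci tested). In July the number was again 34 (85%, against 48.5%), and it was 35 under quantile normalization or median centring. The month with the lowest mean was April for 33 of the 40 loci (82.5%, against 38.5% of all loci tested), June for 5 and July for 2 (5%, against 29.4%). The highest mean was in April for 5 loci (12.5%, against 41.9%), in June for 9 (22.5%, against 30.2%) and in July for 26 (65%, against 27.9%).

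LOC112002958, a match of the class I gene HSP17.6C-CI, had the highest rlog of all sHSP loci, a scale not divided by gene length. It stood at 16.20, 16.78 and 16.25 in the June trees, against 14.08, 15.19, 13.57 and 13.21 in the April trees. In July it was at 16.65, 16.97, 16.66 and 16.86. April and June did not overlap, and the July trees were the most alike. The June/April log2FC was 2.40 (SE 0.39, limma adjusted p = 0.0066), a 5.28-fold change. In July/April it was 2.77 (SE 0.36, limma adjusted p = 0.00191), or 6.84-fold. The June/April call was lost without any single tree other than April replicate 2 or July replicate 4, with adjusted p up to 0.0322.

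Its neighbours in the same run, LOC112002971 and LOC112002972, are also HSP17.6C-CI matches and were not called. LOC112002972 had 9.75, 6.06 and 10.76 in June, against 5.24, 8.77, 9.22 and 10.25 in April, and 9.28, 10.04, 10.66 and 6.68 in July. Each month held high and low trees, so the months overlapped widely.

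Of the other class I loci of this match, LOC112024666 changed most. Its July trees were at 9.90, 9.79, 9.53 and 10.65, against 3.56, 5.36, 5.61 and 4.21 in April. The June trees were spread, at 7.48, 4.04 and 7.73. All July trees lay above all June and April trees, whereas June overlapped April. The July/April log2FC was 5.28 (SE 0.77, limma adjusted p = 0.00322), the largest among the tested sHSP loci and 38.9-fold. This call was lost without April replicate 1 or 4 or July replicate 1 or 2 (adjusted p up to 0.0129).

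LOC112007070 was a weaker class I locus with a July/April log2FC of 1.72 (SE 0.31, limma adjusted p = 0.00766). It had 6.32, 5.32, 6.23 and 5.34 in July, against 3.84, 4.23, 4.40 and 3.84 in April, and 5.36, 4.88 and 4.31 in June. The July values formed a higher and a lower pair, both above April. The call was lost without April replicate 1, 3 or 4, June replicate 2 or July replicate 1, 2 or 3 (adjusted p up to 0.0283).

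Among the 18 tested HSP17.8-CI matches, none was called in June/April and 3 were in July/April, where 1.46% and 2.04% of all loci tested were called. Of the 18, 14 had June trees that all lay above the April trees, a separation that 13.9% of all loci tested had. Their log2FC ran from -1.10 to 4.31 in June/April and from -0.98 to 3.39 in July/April. The called loci were LOC111986244, LOC112036607 and LOC112016674. LOC111986244, with the highest mean of this match, had 10.90, 10.85, 10.60 and 9.55 in July, against 8.51, 9.53, 8.32 and 8.11 in April. July replicate 4 lay only 0.02 above April replicate 2. Its June trees were at 9.79, 9.98 and 10.08. The July/April log2FC was 1.86 (SE 0.35, limma adjusted p = 0.00937), a call lost without any single tree other than April replicate 2 or July replicate 4 (adjusted p up to 0.0321).

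LOC112036607 had 6.26, 6.78, 6.62 and 7.61 in July, against 4.94, 5.29, 5.13 and 4.74 in April, and 6.24, 5.82 and 5.88 in June. The months followed each other without overlap. Its July/April log2FC was 1.79 (SE 0.28, limma adjusted p = 0.00422). Without April replicate 1, 3 or 4 or July replicate 2 or 3 the adjusted p rose to at most 0.0175. LOC112016674 had 5.84, 6.24, 5.36 and 6.22 in July, against 4.49, 4.21, 4.41 and 4.03 in April, and 4.98, 6.07 and 5.33 in June. June and July overlapped here, and both lay above April. The July/April log2FC was 1.63 (SE 0.27, limma adjusted p = 0.00616), and the call was lost without April replicate 1, 3 or 4, June replicate 3 or July replicate 1, 2 or 4 (adjusted p up to 0.0235).

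Some HSP17.8-CI matches did not share this order. LOC112024440, next to LOC112024439 in the genome numbering, had 4.48, 4.37 and 4.27 in June, against 5.96, 4.00, 5.89 and 6.02 in April. Its log2FC was -1.10 (SE 0.47, limma adjusted p = 0.157). April replicate 2 was below all June trees and the other April trees above them. LOC112024439 itself had a log2FC of 0.94 (SE 0.38, limma adjusted p = 0.132), with June trees that did not overlap April. LOC112017894 (-0.30) and LOC112017952 (-0.32), also neighbours, had June/April log2FC below 0 that were not called. These loci were picked out after their values were seen.

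The class II locus LOC112019894 was at 11.45, 13.36 and 12.10 in June, against 10.98, 10.87, 9.51 and 9.62 in April, and at 11.93, 12.95, 12.65 and 11.75 in July. No June or July tree fell to the April range. With a log2FC of 2.06 in June/April (SE 0.52, limma adjusted p = 0.0348) and 2.08 in July/April (SE 0.48, limma adjusted p = 0.0223) it missed the threshold for a call. The peroxisomal match LOC111999654 differed least among the loci that lead their match. It had 5.76, 6.23 and 6.60 in June, against 5.78, 5.96, 5.23 and 5.63 in April, and 6.18, 6.08, 6.13 and 6.26 in July. June overlapped April, and its log2FC of 0.55 in June/April (SE 0.24) and 0.51 in July/April (SE 0.22) were not called (limma adjusted p = 0.163 and 0.15).

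**Figure D2:**
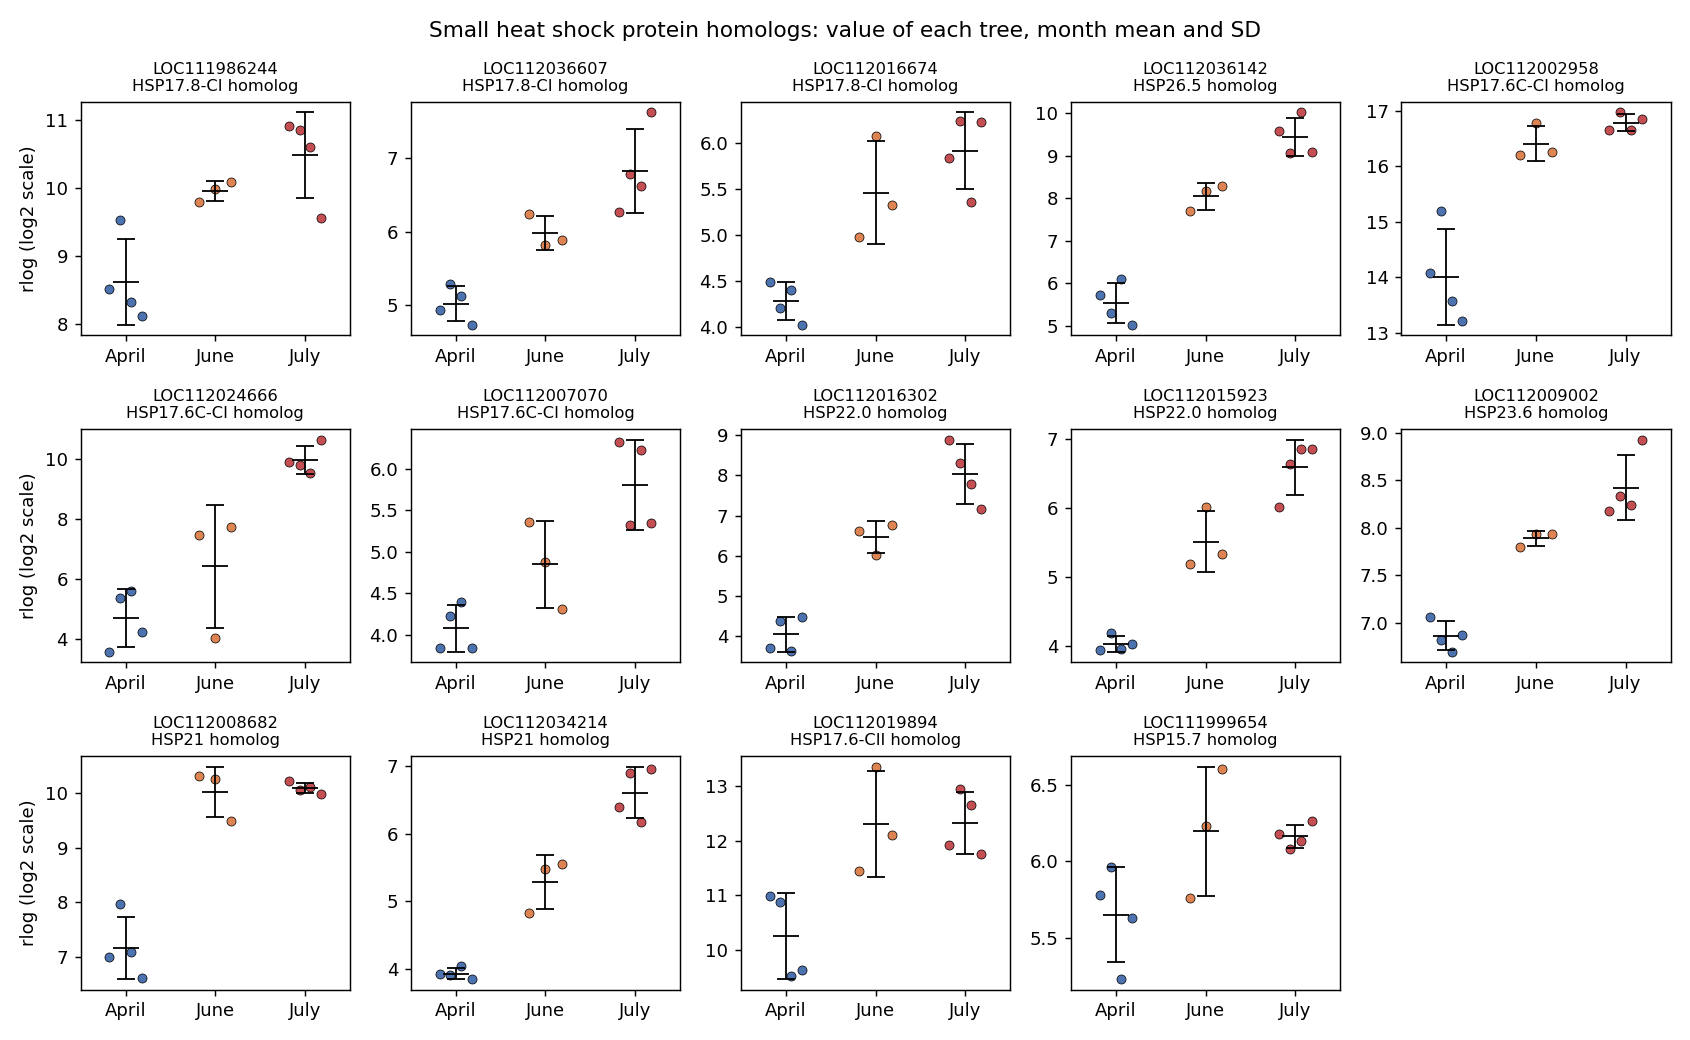
rlog (log2 scale) of each tree in April, June and July for the 12 called sHSP loci and the highest locus of each Arabidopsis match, with the month mean and SD as bars; each panel has its own axis. In all 12 called loci the July trees lie above the April trees, and LOC112008682 is at 9.48 to 10.31 in June and July against 6.61 to 7.96 in April.

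Of the 9 tested matches of HSP22.0, HSP21, HSP23.6 and HSP26.5, 4 were called higher in June/April and 6 higher in July/April, where 0.994% and 1.28% of all loci tested were. HSP21 of the plastid protects photosynthetic and other plastid proteins in Arabidopsis. Its main match, LOC112008682, had 10.31, 10.25 and 9.48 in June, against 7.0, 7.96, 7.09 and 6.61 in April, and 10.21, 10.05, 10.11 and 9.98 in July. The June and July trees were alike and more than 1 log2 unit above every April tree. The log2FC was 2.85 in June/April (SE 0.30, limma adjusted p = 0.00155) and 2.92 in July/April (SE 0.28, limma adjusted p = 0.000525), 7.21-fold and 7.58-fold. Without June replicate 1 or 2 the June/April adjusted p rose to at most 0.0109.

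The weaker HSP21 match LOC112034214 had separate levels in the 3 months, with 3.92, 3.90, 4.04 and 3.85 in April, 4.82, 5.47 and 5.55 in June and 6.39, 6.90, 6.18 and 6.96 in July. Its July trees were highest and its April trees lowest. Its July/April log2FC was 2.68 (SE 0.23, limma adjusted p = 0.000393), and in June/April it was 1.35 (SE 0.25, limma adjusted p = 0.0111), which missed the threshold.

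ER-located HSP22.0 had 2 called matches. LOC112016302 was at 6.61, 6.01 and 6.77 in June, against 3.71, 4.37, 3.64 and 4.47 in April, and at 8.89, 8.32, 7.78 and 7.16 in July. The months formed 3 separate levels. The log2FC was 2.42 in June/April (SE 0.40, limma adjusted p = 0.00731) and 3.99 in July/April (SE 0.37, limma adjusted p = 0.000525), or 5.34-fold and 15.9-fold. LOC112015923 had 5.19, 6.02 and 5.33 in June, against 3.94, 4.19, 3.95 and 4.03 in April, and 6.01, 6.64, 6.86 and 6.86 in July. June replicate 2 just reached the lowest July tree. Its log2FC was 1.49 in June/April (SE 0.26, limma adjusted p = 0.00932) and 2.57 in July/April (SE 0.24, limma adjusted p = 0.000531). The June/April calls of both loci were lost without April replicate 1, 3 or 4, any June tree or July replicate 2 or 3, and that of LOC112015923 also without July replicate 4, with adjusted p up to 0.0375 and 0.0371.

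LOC112036142, a match of HSP26.5, was at 7.69, 8.16 and 8.28 in June, against 5.73, 5.29, 6.10 and 5.02 in April, and at 9.59, 9.07, 10.02 and 9.08 in July. Again the months did not overlap. The log2FC was 2.51 in June/April (SE 0.31, limma adjusted p = 0.00224) and 3.91 in July/April (SE 0.29, limma adjusted p = 0.00022), 5.7-fold and 15-fold. The June/April adjusted p rose to at most 0.0134 without any June tree. The mitochondrial match LOC112009002 (HSP23.6) moved less, with 8.18, 8.34, 8.24 and 8.93 in July, against 7.06, 6.82, 6.69 and 6.87 in April, and 7.80, 7.93 and 7.93 in June. It too had no overlap between months. Its log2FC was 1.56 in July/April (SE 0.18, limma adjusted p = 0.00113) and 1.03 in June/April (SE 0.20, limma adjusted p = 0.0132). The other tested HSP26.5 matches were not called. LOC112038854 was lower than in April, with -1.16 in June/April (SE 0.54) and -0.51 in July/April (SE 0.50). LOC112038855 had 2.17 and 1.74 (SE 1.32 and 1.23).

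**Figure D3:**
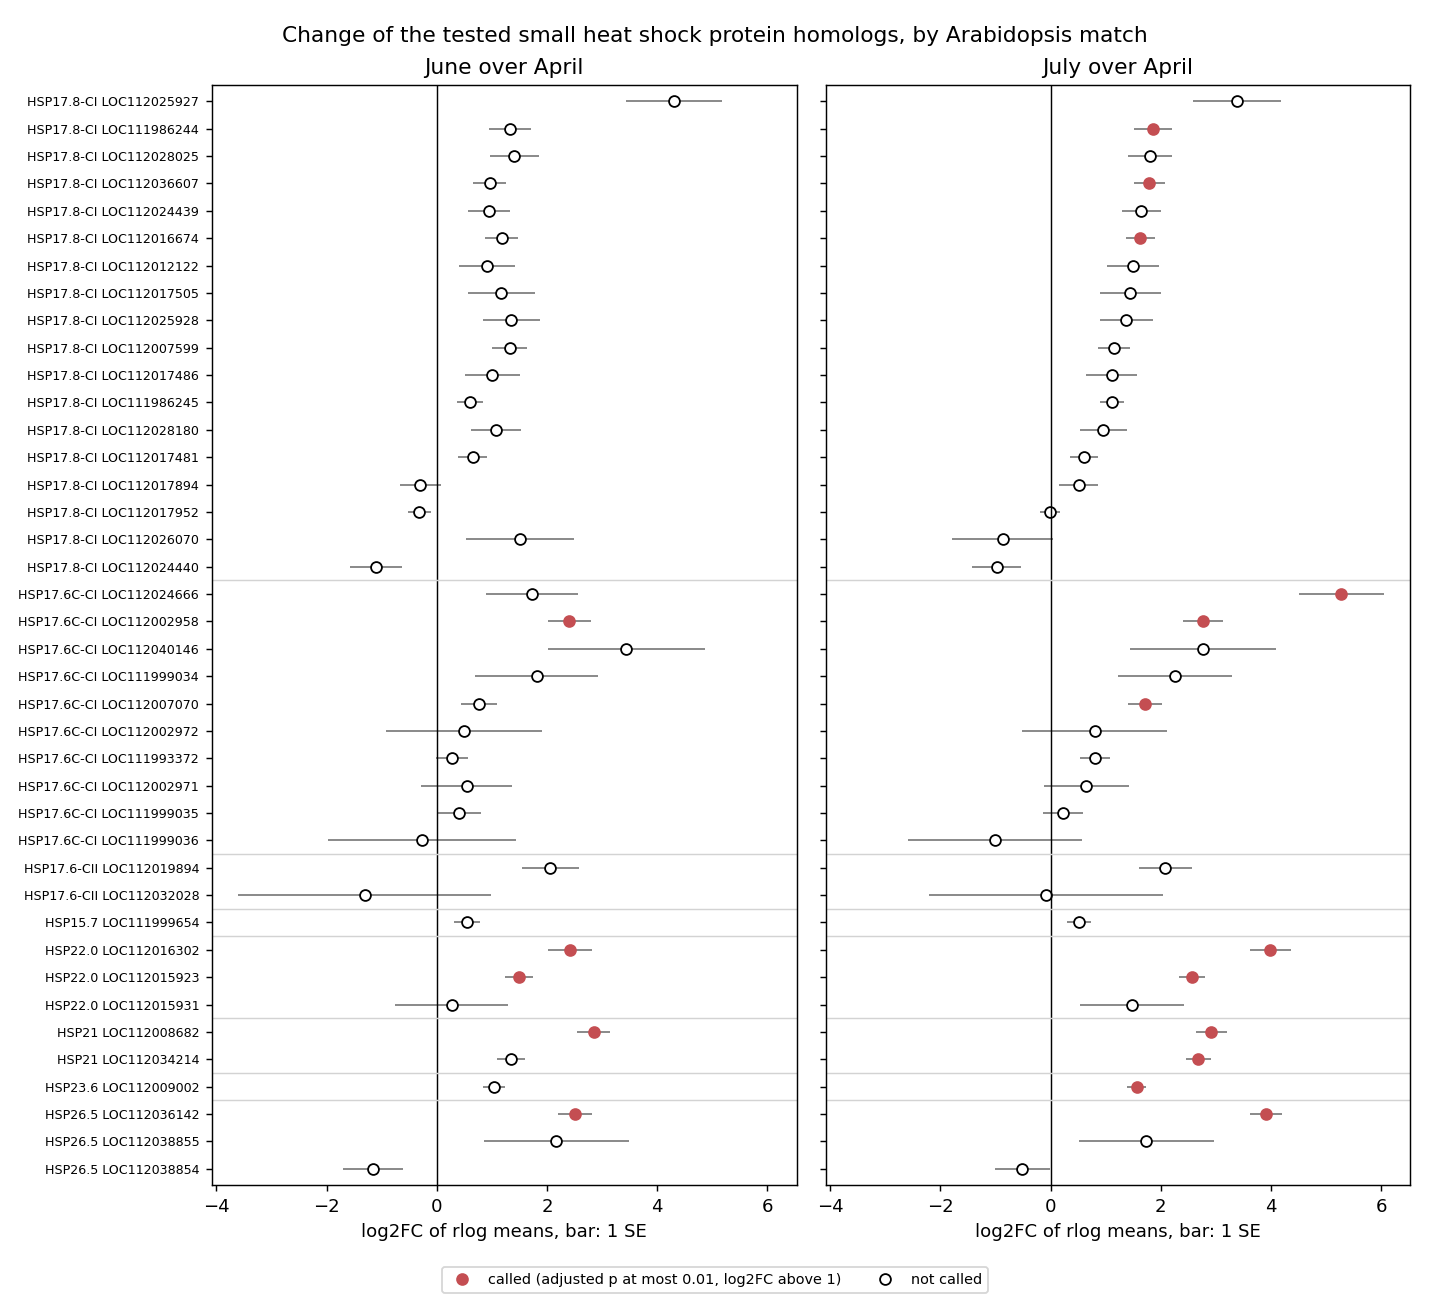
log2FC of June over April (left) and July over April (right) for the 40 tested sHSP loci, grouped by Arabidopsis match, with bars of 1 SE; filled points were called at an adjusted p of at most 0.01 and a log2FC above 1. All 5 and 12 called points lie to the right of 0, and none of the loci left of 0 was called.

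Each month had only 3 or 4 trees. With 1 tree left out, the June/April count was 0 without June replicate 1 or 2, 1 without June replicate 3, 2 without April replicate 1, 3 or 4 or July replicate 2, 3 without July replicate 3, 4 without July replicate 1, 7 without April replicate 2 and 8 without July replicate 4. The July/April count was 7 without April replicate 1 or 4 or July replicate 2, 8 without April replicate 3, and between 10 and 15 without each of the other trees. Of the 12 July/April calls, 7 were kept in every alternative run in which the locus was tested: LOC112002958, LOC112036142, LOC112016302, LOC112015923, LOC112009002, LOC112008682 and LOC112034214. April replicate 2 and July replicate 4 had the lowest weights under limma's arrayWeights (0.26 and 0.397). Without both, 13 loci were called in June/April and 16 in July/April, where 5.3% and 5.94% of all loci tested were called, an alternative added after the data were seen. Calls over the whole table moved too when 1 tree was left out, from 0.107 to 4.16% of all loci tested in June/April and from 0.87 to 4.34% in July/April.

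Between July and June, limma called 0 of the 40 tested sHSP loci, where 0.00446% of all loci tested were called. At an unadjusted p under 0.05, 8 loci were higher and 1 was lower in July, which is 9 of 40 where 8.93% of all loci tested passed. The groups did not overlap for 7 loci, all higher in July (17.5%, against 5.11% in this direction among all loci tested and 5.58% in the other). The largest log2FC among them was 3.55 at LOC112024666 (SE 0.83, limma adjusted p = 0.273). They also included LOC112036142 with a log2FC of 1.40 (SE 0.31, limma adjusted p = 0.262) and LOC112016302 with 1.57 (SE 0.40, limma adjusted p = 0.307). LOC112034214 had 1.33 (SE 0.25, limma adjusted p = 0.256) and LOC112009002 0.53 (SE 0.20, limma adjusted p = 0.464). For LOC112008682 the log2FC was 0.07 (SE 0.30), and for LOC112019894 it was 0.02 (SE 0.52). The median over the tested sHSP loci was 0.38.

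The trees of a month were widely spread at many sHSP loci. The residual SD between trees had a median of 0.59 over the 40 tested loci, against 0.302 over all loci tested. In 9 loci the trees of at least 1 month spanned more than 4 log2 units, 22.5% of those tested against 3.11% of all loci tested. Such a spread was not particular to the family: it was found in 5 of the 18 tested heat-induced accessory loci (27.8%) and 3 of the 33 tested HSP70 loci (9.09%), and in none of the 13 HSP90 and HSP100 or 17 heat shock factor loci. None of these 9 loci was called in a month comparison with all trees. By locus name, LOC112025927, LOC112038855, LOC112040146, LOC112002972, LOC111999036 and LOC111999034 had no entry in the RefSeq assembly named above. The rest of the 9, LOC112026070, LOC112015931 and LOC112032028, had one. Of the 40 tested loci, 10 had no entry, so most of those without one were among the 9. Whether this bears on the spread was not tested.

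LOC112032028, the other class II match, was the most divided. It was near 4 in April replicate 1 (3.63), June replicates 2 and 3 (4.51 and 3.94) and July replicates 2 and 3 (4.16 and 4.07). In all other trees it lay between 8.41 and 11.04. Every month thus had trees of both kinds. The neighbours LOC111999034 and LOC111999036, both HSP17.6C-CI matches, went in opposite ways. In April replicate 1, June replicate 2 and July replicate 4, LOC111999034 was at 4.17, 5.60 and 5.22 while LOC111999036 was at 9.10, 10.83 and 11.59. In July replicates 1, 2 and 3, LOC111999034 was at 9.58, 8.88 and 8.46 while LOC111999036 was at 5.08, 4.98 and 5.94. LOC112002972 and LOC112002971, in a different run, were also lowest in April replicate 1, June replicate 2 and July replicate 4, where LOC112002971 had 4.14, 4.33 and 4.27.

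Among the class I loci, LOC112040146 was at 11.29, 11.80 and 10.27 in June, against 8.63, 7.93, 6.95 and 7.19 in April. Its July trees were at 12.62, 11.93 and 11.74, but July replicate 4 was at 5.49, below every April tree. LOC112025927 had 8.64, 8.50 and 8.62 in June, against 4.82, 3.88, 3.69 and 4.72 in April. The June/April log2FC of 4.31 (SE 0.87, limma adjusted p = 0.0155) missed the threshold. In July it had 8.41, 8.49 and 9.06 but 4.70 in replicate 3. A single July tree thus fell to the April level in each of these loci, and a different one. LOC112026070 differed from both, with 3.91, 3.70 and 3.80 in 3 July trees and 8.49 in July replicate 4. It had 7.24, 7.44 and 7.39 in June and 5.70, 6.36, 5.57 and 5.75 in April. The 3 low July trees thus lay below every April tree, and July replicate 4 above them all. Its July/June log2FC was -2.38 (SE 0.98, limma adjusted p = 0.518) with all trees and -3.55 without July replicate 4 (limma adjusted p = 0.00129). In that run it was the 1 sHSP locus called in July/June, where 0.00446% of all loci tested were called. That run removed the tree that stood apart at this locus, so its p is given only as a description. What set these values apart between trees was not tested.

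**Figure D4:**
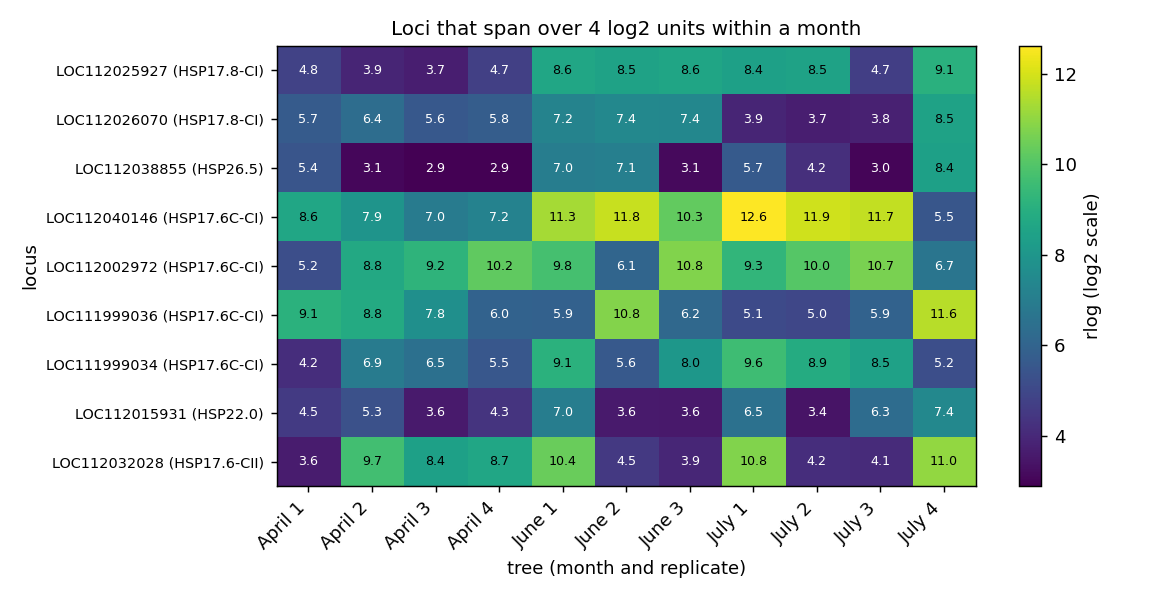
rlog (log2 scale, colour and printed value) in the 11 trees for the 9 tested sHSP loci whose trees spanned more than 4 log2 units within a month. LOC112032028 is at 3.63 to 4.51 in 5 trees and at 8.41 to 11.04 in the other 6, with trees of both kinds in every month.

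Other genes of the heat shock response were set beside the sHSP loci in lists by Arabidopsis gene. No locus of these lists was called lower than in April, but such calls were rare over the whole table. For comparison with their counts, 1.46% of all loci tested were called in June/April (0.994% higher) and 2.04% in July/April (1.28% higher). With 1 tree left out the shares called in either direction ran from 0.107 to 4.16% and from 0.87 to 4.34%. Further sHSP genes had 3 tested loci, of which the HSP17.4B match LOC112004839 (cytosolic class III) was called in July/April, with a log2FC of 2.01 (SE 0.26, limma adjusted p = 0.00179). Of 17 tested heat shock factor loci, 1 was called in each comparison with April (0 in June/April without June replicate 1 or 2; in July/April, 0 without July replicate 1 and 3 without April replicate 2). This was the HSFA1D match LOC112034707, a class A1 factor that activates the response in Arabidopsis, at 10.94, 10.82 and 11.07 in June, against 9.75, 9.92, 9.81 and 9.86 in April, and at 11.05, 10.86, 11.02 and 10.61 in July. The narrow groups were well apart, with a log2FC of 1.11 in June/April (SE 0.12, limma adjusted p = 0.00167). HSFA2, the heat-induced factor that prolongs the response, had a log2FC of 0.55 in June/April (SE 0.30, limma adjusted p = 0.249) and 0.72 in July/April (SE 0.28, limma adjusted p = 0.11) at its match LOC112016017. The factor loci had a median log2FC of 0.31 for June/April and 0.10 for July/April.

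HSP70 chaperones, which refold proteins with ATP, had 33 tested loci. Of these, 2 were called in June/April (2 to 3 with each tree left out) and 3 in July/April. The July/April count was 2 without April replicate 1, 3 or 4, June replicate 1 or 3 or July replicate 1, 2 or 3, and at most 4 with 1 tree left out. The largest called change was that of the HSP70B match LOC112025119, with 11.45, 11.79 and 11.36 in June, against 8.42, 8.58, 7.22 and 8.36 in April, and 12.38, 11.88, 11.95 and 11.93 in July. Its log2FC was 3.38 in June/April (SE 0.29, limma adjusted p = 0.000581) and 3.89 in July/April (SE 0.27, limma adjusted p = 0.000157). The HSP70-4 match LOC111985979 had 2.44 and 2.78 (SE 0.19 and 0.17), and the other HSP70B match, LOC112040254, had 2.56 in July/April (SE 0.47, limma adjusted p = 0.0083). The median over the HSP70 loci was nonetheless 0.21 in June/April and 0.22 in July/April.

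Of 13 tested HSP90 and HSP100 loci, 3 were called in June/April (23.1%; 0 without June replicate 1 or 2, 6 without April replicate 2). In July/April 6 were called (46.2%), and 4 to 8 with each tree left out. These shares were above the 12.5% and 30% of the sHSP loci, so a high share was not particular to the sHSPs. The medians were 0.88 and 1.11. HSP101, the disaggregase that works with sHSPs and HSP70, had a match, LOC112039463, at 15.16, 14.98 and 14.58 in June, against 12.98, 13.76, 13.04 and 13.11 in April, and at 14.75, 15.09, 14.96 and 14.93 in July. Its log2FC was 1.68 in June/April (SE 0.21, limma adjusted p = 0.00215) and 1.71 in July/April (SE 0.19, limma adjusted p = 0.000912). The HSP90.1 match LOC112015648 had 1.80 and 1.89 (SE 0.23 and 0.21), and the HSP90.4 match LOC111992131 had 1.58 in July/April (SE 0.16, limma adjusted p = 0.000692). Of 18 tested heat-induced accessory loci, 1 was called in June/April (0 without any June tree) and 2 in July/April. The July/April count was 1 without April replicate 1, 3 or 4, June replicate 1 or July replicate 1, 2 or 3. At most it was 3 with 1 tree left out. GOLS1, which makes galactinol, was called at LOC112028689 with 2.39 in June/April (SE 0.33, limma adjusted p = 0.00303) and 3.75 in July/April (SE 0.30, limma adjusted p = 0.000306). BAG6, a co-chaperone, was called at LOC112022954 in July/April only, with 2.01 (SE 0.33, limma adjusted p = 0.00539), and had 1.63 in June/April (SE 0.35, limma adjusted p = 0.0208).

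**Figure D5:**
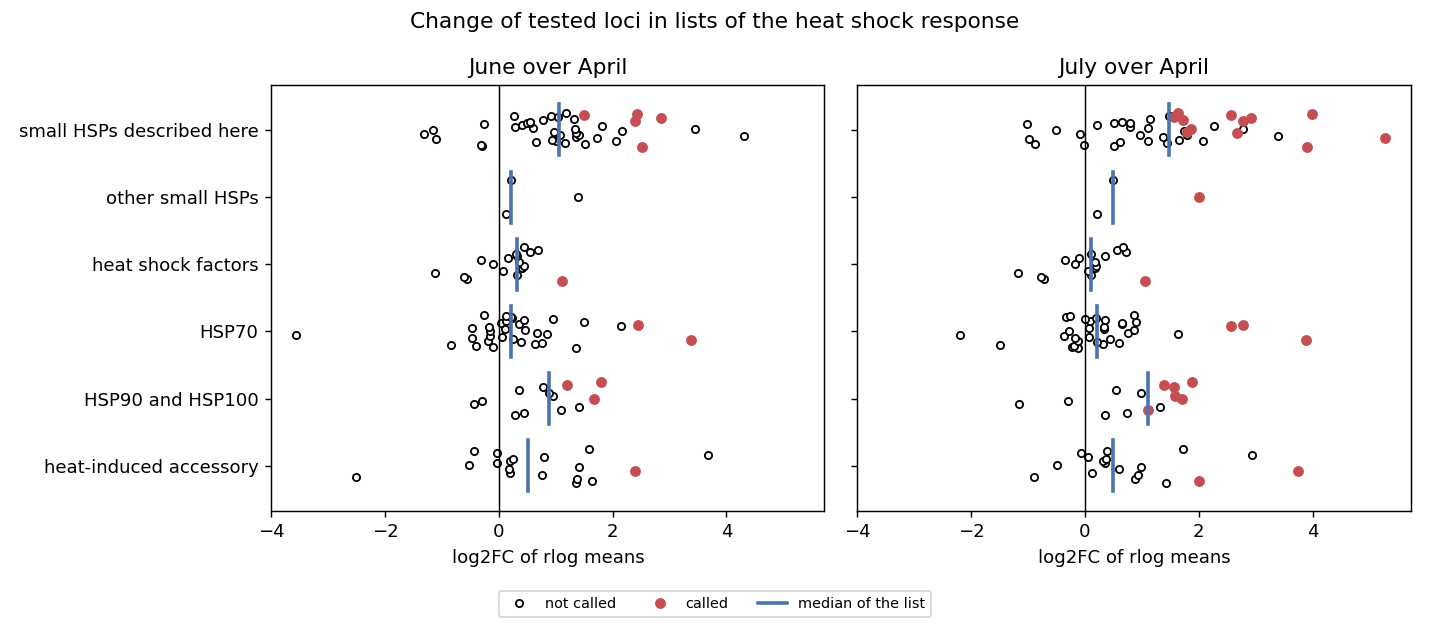
log2FC of June over April (left) and July over April (right) for tested loci of the sHSP homologs and of 5 other lists of the heat shock response, 1 point per locus, with called loci filled and the list median as a vertical line. The median of the sHSP homologs is at 1.05 and 1.48, and that of the HSP90 and HSP100 loci at 0.88 and 1.11. The medians of heat shock factors (0.31 and 0.10) and HSP70 loci (0.21 and 0.22) lie nearer 0.

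Likeness to the sHSP pattern was measured as Pearson r over the 11 trees with the mean of the 40 tested loci, each centred on its own mean. The trees share months, so a high r is partly the April difference, and it is given as a description. Among the tested sHSP loci themselves r ran from -0.66 to 0.96, with a median of 0.73, and was under 0 for 4 loci. Each of them is part of that mean, which raises its r, and loci with a wide spread weigh most in the mean. Outside the family the closest loci were LOC112039192 (AT2G47710, r = 0.979), LOC112015637 (AT1G64810, 0.973), LOC112010514 (AT3G07310, 0.973), LOC111995158 (AT1G09140, 0.971) and LOC112022279 (AT1G06740, 0.97). LOC112039192 had 5.72, 5.74 and 5.61 in June, against 4.19, 4.35, 4.31 and 4.10 in April, and 5.76, 5.73, 6.01 and 6.52 in July. Like the mean of the sHSP loci, it was highest in July replicate 4.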

How the data were processed

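The deposited values are rlog values on the log2 scale. Per the methods and labels, the authors trimmed reads with Skewer, removed ribosomal reads, aligned what remained to the CorkOak1.0 genome (STAR 2.5.3a), assigned each locus its best Arabidopsis protein by BLASTP against TAIR10 and made the rlog values with DESeq2. The read counter and its use of strand are not given in the sources used here. All 11 value columns were used, 1 per tree.

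Month means were compared in R 4.3.3 with limma 3.58.1: month was the factor, all trees entered, the variance prior followed mean level (prior df 2.38), and p-values were adjusted by Benjamini-Hochberg over 22426 loci whose mean rlog reached log2 of 10. No 2 trees had identical values. Raw counts and the depth of each library cannot be had from the rlog values, so the precision is that of the spread between trees. The members and lists were chosen with earlier results of these data known. Values per tree are given for loci called in any comparison and for the highest tested locus of each Arabidopsis match. From other lists, at most 3 called loci each by size of change are named, besides HSFA2 and HSP101. Alternatives were the minimum level, a pseudocount of 1, 2 normalizations, the variance prior, weights per tree, fits of 2 months, the replicate number as a block, the thresholds, and leaving out each tree. Linear values are 2 to the power of rlog. Figures were drawn with matplotlib 3.10.9.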

Additional observations from a re-analysis of the deposited data

Results flagged for a closer look

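The 4 April and the 4 July trees of 23 loci (the loci given per tree by rule and the 9 loci with a wide spread) were examined for a single tree set far from the others, by Dixon's criterion at the 95% level. In 46 such groups 5 trees were set apart. All 5 belong to the 9 loci that were included because of their wide spread, so the rate of about 1 group in 20 that chance gives does not apply, and the values are given as a description. None of the 5 values belongs to a called locus. July replicate 4 gave 3 of them: LOC112026070 at 8.49 against 3.70 to 3.91 in the other July trees, LOC112040146 at 5.49 against 11.74 to 12.62, and LOC111999036 at 11.59 against 4.98 to 5.94. In July replicate 3, LOC112025927 was at 4.70, with the other July trees at 8.41 to 9.06. In April replicate 1, LOC112038855 (HSP26.5) was at 5.44, with the other April trees at 2.89 to 3.07.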

How the results depend on the processing

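The median log2FC of the tested sHSP loci was 1.05 for June/April, 1.48 for July/April and 0.38 for July/June. It was 0.63, 0.80 and 0.11 with no minimum level, over all matched loci, and 1.53 and 1.97 in the comparisons with April at a minimum of log2 of 100, since each setting changes the loci included. With each tree left out it ran from 1.03 to 1.11, from 1.34 to 1.60 and from 0.29 to 0.45. The count of called loci in June/April, 5 with all trees, was 12 with arrayWeights (5.82% of all loci tested, against 1.46%), 1 with only the trees of the 2 months (0.575%), 11 at an adjusted p of at most 0.05 (4.15%), 13 without April replicate 2 and July replicate 4 (5.3%, added after the data were seen), and 0 to 8 with each tree left out. The July/April count, 12 with all trees, was 19 with arrayWeights (5.67% of all loci tested, against 2.04%) and 7 to 15 with each tree left out. At a minimum of log2 of 100 it was 7, among fewer tested loci, and the 7 were not all among the 12. No locus of the 12 that stayed in that test lost its call. The July/June count of 0 became 1 without April replicate 2 and July replicate 4 (0.00446% of all loci tested). It was 0 to 1 with each tree left out (0 to 0.00446%). With the replicate number as a block, 2 loci were called for June/April and 8 for July/April (0.245 and 0.945% of all loci tested). The titles number the June trees 1, 2 and 3, but their library codes read 1, 3 and 4. A block by the code number, added after the data were seen, gave 2 and 7 calls (0.361 and 1.01%), and the July/June log2FC, not called, was -0.06 for LOC112008682 and -0.19 for LOC112019894. Deviations of same-numbered trees correlated between -0.0772 and 0.211 across loci and exceeded 0.1 in 1 of 10 pairs under either numbering, so neither number was taken to pair the trees. Changes of sign were found in July/June log2FC that were not called: LOC112019894 was -0.01 under median centring and -0.41 to 0.54 with each tree left out, LOC112008682 -0.19 to 0.22 and LOC111999654 -0.25 to 0.17. The cause of these differences was not tested. Shrinkage of weak loci and the unknown depth of each library limit the size of the changes that rlog values can show.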
